A study of Mus musculus with 10 samples.

Results

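The genes described here are 10 members of the pathway through which leukaemia inhibitory factor (LIF) keeps mouse embryonic stem cells undifferentiated: Lif, Lifr, Il6st, Jak1, Jak2, Tyk2, Stat3, Socs3, Ptpn11 and Pim1. They were taken by symbol, through GENCODE vM21 names, from the 55487 genes of the RNA-seq tables, and each symbol matched 1 gene. The series holds 10 samples of E14, a mouse embryonic stem cell line, in 6 groups. MapR and BisMapR, methods that map R-loops (RNA paired to a DNA strand), gave 7 of the samples. These 7 include the titles BisMapR_RNaseA, MapR_GST-MNase and MapR_NBSS, and none was analysed here. The other 3 are RNA-seq libraries of the same line, replicates 1 to 3, and every value below comes from them.

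All 3 libraries shared 1 culture condition: medium with 15% serum, LIF at a dose the labels do not give, a GSK inhibitor at 3 µM and a MEK1/2 inhibitor at 1 µM. Cells without LIF or without the inhibitors were not part of the RNA-seq group, so no response to LIF could be measured. Nothing says whether the replicates were separate cultures. The spread between them may therefore be technical.

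LIF binds its receptor LIFR, which pairs with gp130, the signalling chain encoded by Il6st and shared by the interleukin-6 family of cytokines. JAK kinases bound to the receptor tails phosphorylate STAT3, which enters the nucleus and activates genes that sustain self-renewal. SOCS3 is made in response and shuts the receptor down, while the phosphatase SHP2, encoded by Ptpn11, links the same receptor to the RAS and ERK branch that favours differentiation.

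Libraries held between 5787357 and 11420425 estimated counts, and replicate 1 was the deepest. Levels are given as TPM, which scales a gene's count by its length and then to a fixed library total. CPM scales the count to the same total without regard to length. The 6 pluripotency markers Pou5f1, Nanog, Sox2, Zfp42, Esrrb and Tdgf1 summed to 996.5, 790.1 and 657.8 TPM in replicates 1, 2 and 3. Of 8 fibroblast markers, 4 (Col3a1, Dcn, Lum and Postn) had 0 counts in every library, and the list summed to between 1.79 and 4.57 TPM, mostly from Thy1 and Pdgfrb. The lists for primitive endoderm, mesoderm and neural cells summed to at most 1.21 TPM in any library, and that for trophoblast to between 3.57 and 5.62 TPM, nearly all from Tfap2c. TPM ran lower in replicates 2 and 3 across the table: over genes with a mean of at least 1 TPM, the median log2 difference from replicate 1 was -0.32 in replicate 2 and -0.60 in replicate 3, against -0.02 and -0.16 in CPM.

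Of the 10 genes, 9 had a mean TPM of at least 1, a limit reached by 44.2% of protein-coding genes and 19.8% of all genes in the tables. The exception was the ligand gene Lif. The median of the 10 was 2.73 ± 0.42 (SD, n = 3) in log2(TPM + 1), and that of the 9680 protein-coding genes past the limit was 2.72 ± 0.30 (SD, n = 3). The pathway thus spanned the range of expressed genes rather than its top: Pim1 was above 90.0% of expressed protein-coding genes in mean TPM, Stat3 above 65.4%, Lifr above 51.5% and Jak2 above 2.33%.

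**Figure D1:**
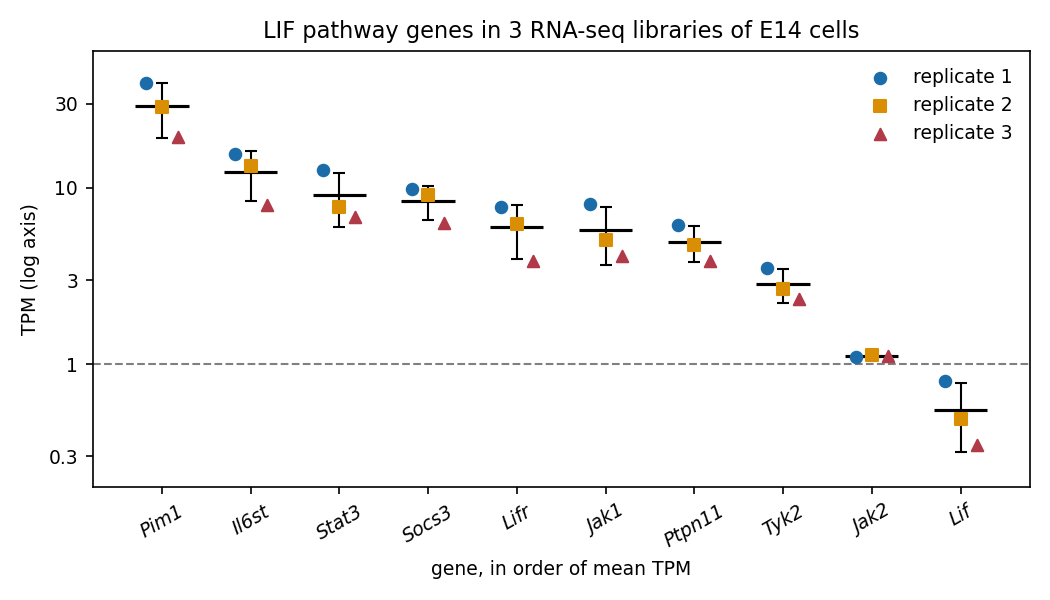
TPM (log axis) of the 10 genes in each of the 3 libraries, ordered by mean. Points are replicates, black lines the means and bars the SD over 3 replicates. The dashed line marks 1 TPM, and Lif alone lies below it. Replicate 3 has the lowest TPM in 9 genes, the exception being Jak2.

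Lif (ENSMUSG00000034394, GRCm38 chromosome 11, 4257557 to 4272514, plus strand) encodes the cytokine itself, which these cells received in the medium. It had 39, 20 and 12 counts in replicates 1, 2 and 3. These correspond to 0.8, 0.49 and 0.35 TPM, with exact Poisson 95% intervals of 0.569 to 1.09, 0.299 to 0.757 and 0.181 to 0.611 TPM. The 3 intervals overlap, and each library lies above the floor of 3 counts used here for detection. Lif was the lowest of the 10 genes in every library, at a mean of 0.547 ± 0.23 TPM (SD, n = 3). Its place under 1 TPM depended on the scale: with the shortest genes (effective length below 100 nt) removed from the TPM total, its mean was 1.47. In bulk RNA, few cells making much of a transcript and many cells making little cannot be told apart. Fibroblasts are a usual source of LIF where feeder cells are used. The levels of fibroblast markers are given above, and whether such cells added to the Lif counts was not tested.

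The other cytokines that signal through gp130 were low as well. None of the 8 listed reached a mean of 1 TPM. Osm, encoding oncostatin M, had the highest mean, with 1.19, 0.67 and 0.57 TPM, and it exceeded Lif in all 3 libraries, the Lif to Osm ratio being 0.672, 0.731 and 0.614. Ctf1 (cardiotrophin 1) averaged 0.67 ± 0.314 and Cntf (ciliary neurotrophic factor) 0.623 ± 0.0987 TPM (SD, n = 3). In TPM the top place of Osm rests on replicate 1, since Cntf was higher in replicates 2 and 3, with 0.69 and 0.67 TPM. On CPM Osm was above Cntf in each library, with 4.115, 4.175 and 3.974 against 1.138, 1.879 and 2.073. The length given for Osm was 1598, 2272 and 2272 nt in replicates 1, 2 and 3, and that of Cntf was 1073 nt throughout. As for Lif, the limit depended on the scale: with the shortest genes removed from the TPM total, Osm, Ctf1 and Cntf had means of 2.18, 1.79 and 1.72, so that 3 of the 8 passed 1. Il6 and Ctf2 had 0 counts in each library, under floors of 0.263, 0.464 and 0.518 CPM in replicates 1, 2 and 3.

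The receptor chains were both expressed. Lifr (ENSMUSG00000054263, chromosome 15, 7090614 to 7197489, plus strand), the LIF-binding chain, had 7.84, 6.22 and 3.83 TPM from 1852, 1008 and 578 counts. Il6st (ENSMUSG00000021756, chromosome 13, 112464070 to 112510086, plus strand), the gp130 chain, had 15.6, 13.31 and 8.05 TPM from 1332, 740 and 490 counts. Replicate 3 was lowest for both chains. Their ranges do not overlap, although the lowest Il6st value lies just above the highest Lifr value.

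Within a library the balance of the chains was steady. Il6st exceeded Lifr 1.99, 2.14 and 2.1 times in TPM, a mean log2 ratio of 1.05 ± 0.06 (SD, n = 3) with the same sign in 3 of 3 libraries. The direction rests on length scaling. Lifr transcripts averaged 8535 nt and those of Il6st 3234 nt, and on CPM the log2 ratio of Il6st to Lifr was -0.39 ± 0.13 (SD, n = 3). With 3 libraries an exact two-sided sign-flip test cannot give a p under 0.25, so no p is given for ratios within libraries.

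The partner receptors through which the other family members act were scarce. None of the 6 listed had a mean of 1 TPM. Il6ra, the interleukin-6 receptor, was highest at 1.1, 0.81 and 0.67 TPM, so Lifr exceeded it 7.13, 7.68 and 5.72 times. Osmr, the oncostatin M receptor, had 7, 7 and 0 counts. With the shortest genes removed from the TPM total, Il6ra, Il11ra1 and Cntfr passed 1, at 2.33, 1.65 and 1.12.

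The kinases differed among themselves. Jak1 (ENSMUSG00000028530, chromosome 4, 101152367 to 101265282, minus strand), the kinase on which gp130 signalling chiefly relies, had 8.06, 5.05 and 4.09 TPM from 929, 452 and 307 counts. Tyk2 (ENSMUSG00000032175, chromosome 9, 21104068 to 21131243, minus strand) had 3.52, 2.68 and 2.33 TPM from 398, 208 and 185 counts. Jak2 (ENSMUSG00000024789, chromosome 19, 29251828 to 29313080, plus strand) had 1.1, 1.12 and 1.11 TPM from 144, 85 and 71 counts. The 3 kinases do not overlap: the lowest Jak1 value is above the highest Tyk2 value, and the lowest Tyk2 value above every Jak2 value.

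Jak1 made up 46.7% ± 3.05 of the summed TPM of the 4 JAK genes, Tyk2 23.8% ± 2.18, Jak3 19.7% ± 3.84 and Jak2 9.7% ± 2.82 (SD, n = 3). Jak3, which serves cytokine receptors of lymphocytes, had 3.41, 2.59 and 1.37 TPM and was thus above Jak2 in each library. Between Jak3 and Tyk2 the log2 ratio was -0.29 ± 0.42 (SD, n = 3), a difference smaller than its spread although Jak3 was the lower in 3 of 3 libraries. Jak1 exceeded Jak2 7.33, 4.51 and 3.68 times in TPM, so that ratio was far less steady than that of the receptor chains. The SD of the log2 ratio was 0.51 for Jak1 to Jak2 and 0.055 for Il6st to Lifr. On CPM these SDs were closer, at 0.289 and 0.129.

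Stat3 (ENSMUSG00000004040, chromosome 11, 100885098 to 100939540, minus strand) encodes the transcription factor that the receptor activates. It had 12.6, 7.8 and 6.87 TPM from 785, 419 and 269 counts, a mean of 9.09 ± 3.08 TPM (SD, n = 3). It was the highest STAT gene in every library, with 42.7, 40.1 and 38.7% of the summed TPM of the 7 STAT genes. Stat6, which serves interleukin-4, followed at 7.77, 5.32 and 4.62 TPM, and Stat3 exceeded it 1.62, 1.47 and 1.49 times. Stat2, of the interferon response, had a mean share of 16.5% ± 1.42 (SD, n = 3).

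Stat5a lies beside Stat3 in tail-to-tail orientation, and the annotated ends of both genes overlap by 72 nt on opposite strands. It nevertheless had 0.56, 0.38 and 0.34 TPM, and Stat3 exceeded it 22.5, 20.5 and 20.2 times. Stat5a and Stat5b are close paralogs with estimated counts that were not all whole, so the division of reads between them is uncertain.

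**Figure D2:**
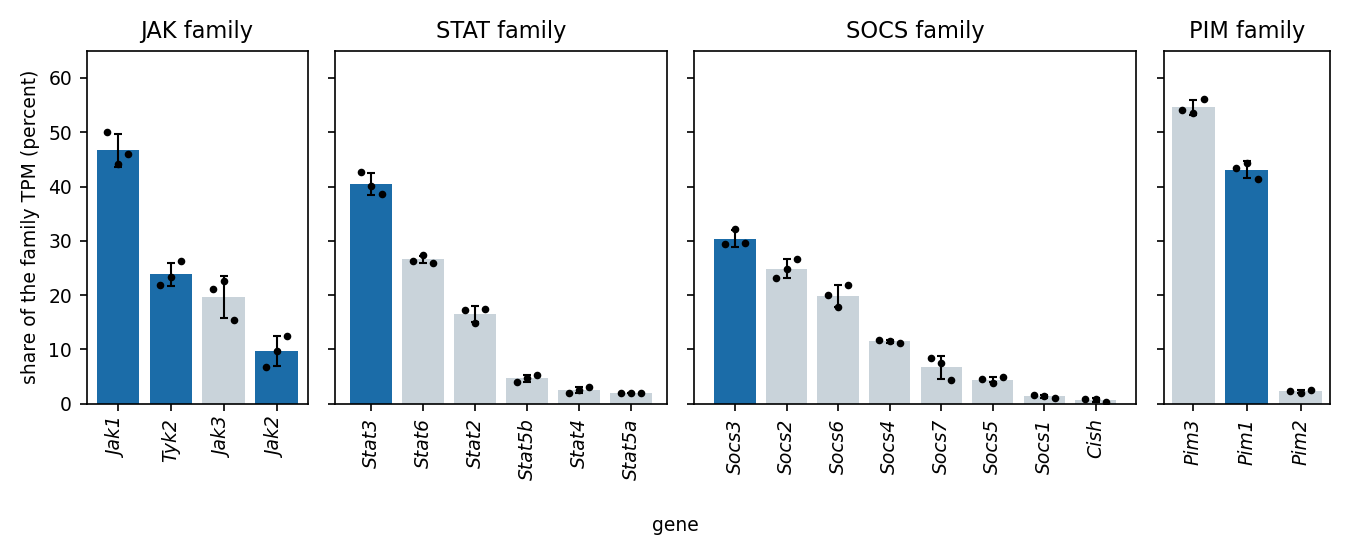
Share of the summed TPM of each gene family (percent) held by its genes, 1 STAT family gene not being drawn. Bars are means, error bars the SD and points the 3 replicates, and dark bars are the genes of the LIF pathway set. Jak1, Stat3 and Socs3 hold the highest mean share of their family in TPM, whereas Pim1 is second to Pim3; on CPM Socs4 passes Socs3 and Pim1 passes Pim3.

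Socs3 (ENSMUSG00000053113, chromosome 11, 117966079 to 117970047, minus strand) encodes the feedback inhibitor that binds gp130 and blocks the JAKs. Its promoter is shown because it was the only promoter of the 10 genes that held the palindromic STAT motif TTCNNNGAA, which reads the same on both strands. The windows, from RefSeq on GRCm38.p6, run from 250 bases before to 50 bases after a start site, and all 10 genes matched, with 12 windows. One such window of the 12 (8.33%) held the motif, against 8.3% of all 32851 windows, so the share in the set is that of promoters at large. Of the other pathway genes, 35 had windows. The motif lay in 3 of these 49 windows (6.12%), belonging to Cish and Gab1. The Socs3 sequence is that of the 250 bases before its RefSeq start, chr11:117969367-117969616 on the minus strand, with the motif in capitals. The motif lies at position -154 from the RefSeq start site, 117969512 to 117969520. Like the whole printed stretch, it is inside the longer Socs3 gene body of GENCODE. Cish, another SOCS family gene, is set beside it since its window held the motif in 2 copies, again in capitals. They are at positions 1 and 12 of the sequence transcribed from the RefSeq start (chr9:107296659-107296678, plus strand). These copies too lie inside the GENCODE gene body, 107296026 to 107302784.
Socs3: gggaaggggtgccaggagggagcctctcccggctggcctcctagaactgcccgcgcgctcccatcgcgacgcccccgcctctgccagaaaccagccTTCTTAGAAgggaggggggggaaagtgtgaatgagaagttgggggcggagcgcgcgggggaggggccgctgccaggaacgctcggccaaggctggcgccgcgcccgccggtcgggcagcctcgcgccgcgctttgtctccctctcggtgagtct
Cish: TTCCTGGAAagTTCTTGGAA

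A match describes the letters of the reference genome and not a bound site. Socs3 and Cish stood at opposite ends of the SOCS family in TPM. Socs3 had 9.8, 9.11 and 6.29 TPM from 628, 409 and 275 counts. Cish had 0.31, 0.23 and 0.07 TPM from 26, 10 and 5 counts. In TPM, though not in CPM, Socs3 was the highest of the 8 SOCS family genes, with 30.4% ± 1.53 of their summed TPM (SD, n = 3). Cish was the lowest in both TPM and CPM, with 0.692% ± 0.32 of the summed TPM (SD, n = 3).

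Socs2 and Socs6 came next, at 24.9% ± 1.76 and 19.9% ± 2.0 of the family (SD, n = 3). Socs3 exceeded Socs2 in all 3 libraries, by 1.27, 1.3 and 1.11 times. Socs1, the other strong JAK inhibitor of the family, had 0.52, 0.42 and 0.22 TPM. The order within the family depends on length scaling. On CPM the Socs3 share was 21.8%, and the longer Socs4 stood above Socs3 in all 3 libraries, with 62.8, 64.3 and 52.4 CPM against 55, 63.2 and 47.5. Socs2 and Socs6 also changed places, the log2 ratio of Socs2 to Socs6 being 0.32 ± 0.13 in TPM and -0.45 ± 0.18 in CPM (SD, n = 3).

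Ptpn11 (ENSMUSG00000043733, chromosome 5, 121130533 to 121191397, minus strand), the SHP2 gene, had 6.13, 4.77 and 3.87 TPM from 881, 498 and 401 counts. In CPM it was among the steadiest of the 10, at 77.1, 77 and 69.3. Of 6 listed genes of the SHP2 branch (Grb2, Gab1, Gab2, Shc1, Sos1 and Sos2), 5 had a mean of at least 1 TPM. Gab1, a docking protein of the SHP2 branch, was highest with 22.15, 15.41 and 10.13 TPM. Gab2, its paralog, had 0.19, 0.16 and 0.05 TPM. Gab1 was thus above Ptpn11 in every library, and Gab2 was at the floor in replicate 3 with 3 counts.

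Among the 14 other negative regulators listed, 12 had a mean of at least 1 TPM, Cish and Socs1 being the exceptions. With the shortest genes removed from the TPM total, Socs1 had a mean of 1.05 and 13 of the 14 passed 1. Pias2 was highest, at 43.17, 29.73 and 26.69 TPM, and held 57.3% ± 1.02 (SD, n = 3) of the summed TPM of the 4 PIAS genes. Pias3, whose product is named for inhibiting STAT3, had 6.69, 4.3 and 4.23 TPM, the smallest share of that family at 8.76% ± 0.521 (SD, n = 3). Ptpn2, a phosphatase that acts on JAKs and STATs, had 11.98, 10.14 and 8.6 TPM.

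Pim1 (ENSMUSG00000024014, chromosome 17, 29490753 to 29496112, plus strand) encodes a serine/threonine kinase whose gene is a known STAT3 target. In TPM it was the highest of the 10 genes in every library, with 39.28, 28.9 and 19.34 TPM from 1786, 960 and 693 counts, although Lifr had more counts in replicates 1 and 2. Its relative Pim3 was higher still, at 48.85, 34.85 and 26.31 TPM. Pim1 held 43.1% ± 1.61, Pim3 54.6% ± 1.37 and Pim2 2.32% ± 0.272 of the summed TPM of the 3 PIM genes (SD, n = 3). The order of Pim1 and Pim3 depends on length, since on CPM Pim1 held 57.1%.

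Other genes known as STAT3 targets in these cells were split. Of 8 listed, 5 had a mean of at least 1 TPM, or 6 with the shortest genes removed from the TPM total. Tfcp2l1, a transcription factor that carries much of the LIF effect on self-renewal, had 41.5, 32.38 and 17.74 TPM. Klf5 had 38.35, 27.99 and 17.4 TPM and Klf4 22.14, 14.73 and 13.04 TPM. These 3 transcription factors lay above Stat3 itself in each library.

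Gbx2, by contrast, had 0.71, 0.69 and 0.84 TPM from 33, 22 and 32 counts. With the shortest genes removed from the TPM total, the mean of Gbx2 was 2.05. Myc had 12, 8 and 5 counts and Fos 20, 4 and 3, the last at the floor. Junb had 1.83, 1.52 and 1.38 TPM. Fos and Junb are also induced through ERK, whose activating kinase was inhibited in all of these cultures, and no library without the inhibitor was measured.

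**Figure D3:**
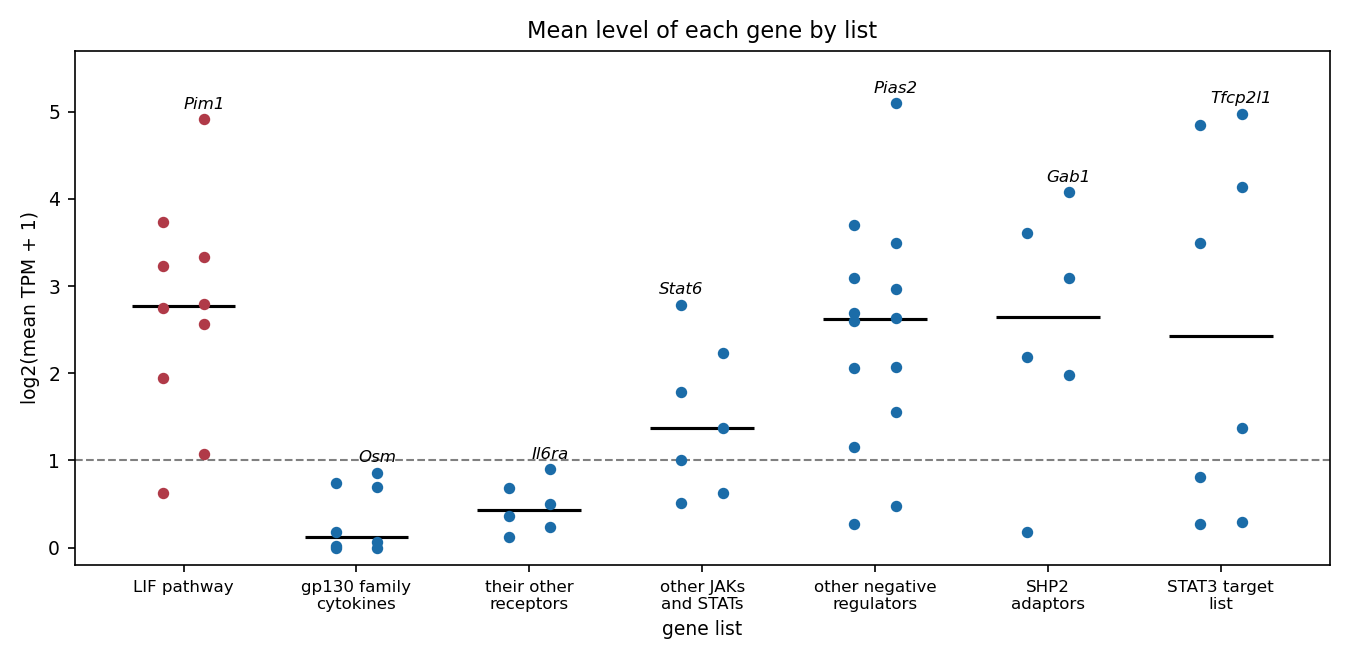
Mean level over 3 replicates, as log2(mean TPM + 1), of each gene in the LIF pathway set and 6 related lists. Points are genes, black lines the medians and the dashed line 1 TPM, and the gene with the highest mean is named in each list. On this scale all gp130 family cytokines and the other receptors lie below the line, whereas 9 of 10 LIF pathway genes lie above it.

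In order of mean TPM the genes ran Pim1, Il6st, Stat3, Socs3, Lifr, Jak1, Ptpn11, Tyk2, Jak2 and Lif. Neighbours were compared by their log2 difference within each library. Of the 9 neighbouring pairs, 7 kept their order in 3 of 3 libraries with a mean difference above its SD. Stat3 and Socs3 did not differ beyond their spread, at 0.09 ± 0.30 (SD, n = 3). The same held for Lifr and Jak1, at 0.06 ± 0.21 (SD, n = 3), where Lifr was higher in 1 of 3 libraries. Jak1 and Ptpn11 were barely apart, at 0.19 ± 0.18 (SD, n = 3). The largest steps were those from Tyk2 to Jak2, 1.34 ± 0.31, and from Pim1 to Il6st, 1.24 ± 0.11 (SD, n = 3). On CPM the mean log2 difference of Socs3 minus Lifr was -1.31 and that of Jak1 minus Ptpn11 -0.15, each the reverse of the TPM order.

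Genes of like level across the 3 libraries were sought by Euclidean distance in log2(TPM + 1) among 21897 protein-coding genes. For Stat3 the nearest were Yae1d1, Lrp6 and Akap7, at distances of 0.0427, 0.0606 and 0.0632. For Lifr they were Rbm33, Pak2 and Tmem181a, at 0.0235, 0.0414 and 0.0482. Such likeness is common at these levels, with 131 genes within 0.25 of Stat3 and 216 within 0.25 of Lifr, and the measure rests on 3 libraries of 1 condition.

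The next question was how far the replicates of each gene differed. None of the 10 genes varied more than genes of similar abundance in edgeR's goodness-of-fit test with Benjamini-Hochberg adjustment over all 12577 genes tested. The count was thus 0 of 10, and 1.84% of all genes tested were called at an adjusted p under 0.05. Without adjustment, 0 of the 10 genes and 6.96% of all genes tested had a p under 0.05. The lowest unadjusted p was that of Lifr, 0.254 (edgeR, adjusted p 1.0). With size factors from DESeq2 in place of TMM the count was also 0. A p that misses the threshold does not show that the replicates were equal, as the per-gene values show.

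Replicate 3 was lowest in CPM for 10 of 10 genes, as it was for 59.9% of all genes tested. In TPM it was lowest for 9 of the 10, against 76.6% of genes tested. After TMM scaling, which removes a shift shared by most genes, it was lowest for 7 of the 10, against 40.4%. Since the 3 libraries are the same for every gene, these counts are not independent observations.

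The size of the deviation differed by gene. After TMM scaling, Lifr had 155.2, 151.9 and 108.9 CPM, and replicate 3 deviated from the mean of replicates 1 and 2 by -0.50 on the log2 scale. Lif, Stat3, Jak1 and Il6st deviated by -0.47, -0.35, -0.33 and -0.27, and Pim1 and Socs3 by -0.17 and -0.14. Ptpn11 had 73.8, 75 and 75.5 CPM, a deviation of 0.02. Jak2 and Tyk2 were slightly higher in replicate 3, by 0.11 each. Lif, the receptor chains, Jak1, Stat3, Pim1 and Socs3 were therefore on the low side in replicate 3, while Ptpn11, Jak2 and Tyk2 were not.

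Gene length moved with this deviation over the tested genes averaging 100 counts or more, from which the length deciles were drawn. In the decile of longest genes (at least 4970 nt) the median deviation of replicate 3 was -0.23, and in the decile of shortest it was 0.36. Relative to the median of its decile, Lifr, the longest of the 10, was at -0.27, with 26.4% of the decile lower. Lif was farthest from its decile, at -0.50 with 6.39% of the decile lower, but its mean of 24 counts is below that limit. Stat3 was at -0.32 (15.4% lower), Il6st at -0.23 (24.8%), Pim1 at -0.22 (23.4%), Jak1 at -0.19 (28.2%) and Socs3 at -0.11 (34.5%). Jak2, Tyk2 and Ptpn11 were at 0.24, 0.25 and 0.25 (80.6, 81.3 and 79.2% lower). With a smooth length trend taken into the edgeR fit, 0 of the 10 genes were called. The unadjusted edgeR p of Lifr went from 0.254 to 0.874, while those of Ptpn11, Tyk2 and Jak2 went down, from 0.994 to 0.471, 0.905 to 0.484 and 0.931 to 0.588.

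**Figure D4:**
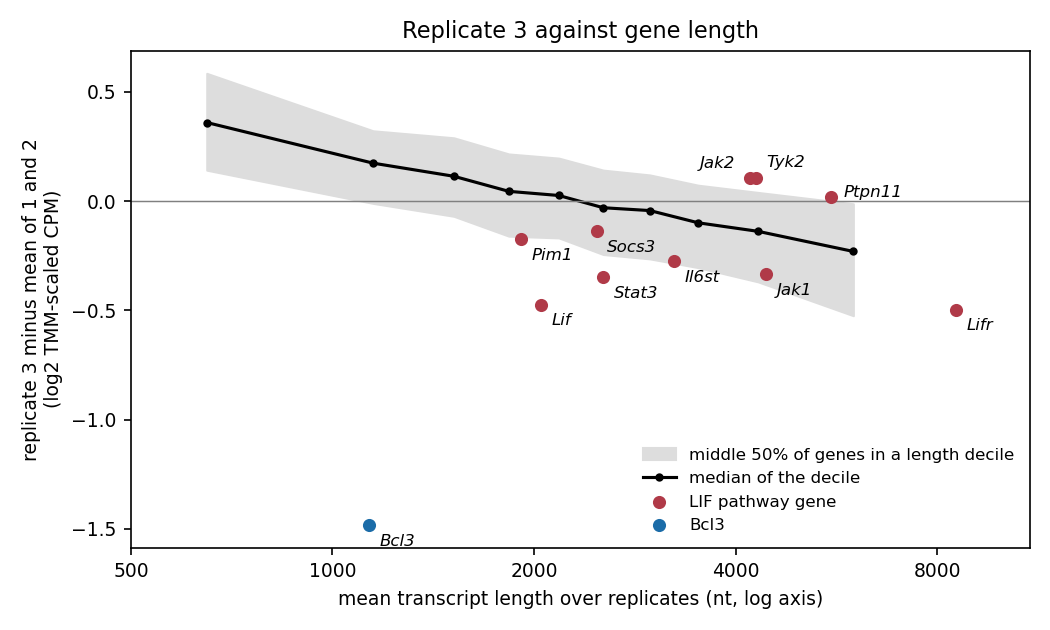
Deviation of replicate 3 from the mean of replicates 1 and 2 (log2 TMM-scaled CPM) against mean transcript length (nt, log axis). The black line joins decile medians of genes averaging 100 counts or more, grey marks their middle 50%, red points are the 10 LIF pathway genes (Lif, at a mean of 24 counts, included) and the blue point is Bcl3. Lifr lies at -0.50 at the long end, and Bcl3 lies at -1.48 at the short end, far below the grey band.

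Bcl3, a STAT3 target and regulator of NF-kappaB, was the only gene called among the 36 tested of 51 pathway genes outside the set of 10, a share of 2.78% beside the 1.84% of all genes tested. It had 36.2, 38 and 11.7 CPM from 413, 246 and 68 counts, and its values in replicates 1 and 2 were about equal. The adjusted p was 0.00678 by edgeR, and 0.000181 with the length trend in the fit. It was short, at a mean of 1133 nt, in a decile whose median deviation was 0.17. The call rests on replicate 3: without it the adjusted p was 0.999, without replicate 2 it was 0.147 and without replicate 1 it was 0.0374.

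TPM added a source of spread that counts did not have. The deposited length of a gene is an average over its transcripts, weighted by their estimated abundance, and it differed between libraries. For Stat3, with 14 transcripts, it was 2436, 2976 and 2196 nt. Replicate 2 had 0.943 times the CPM of replicate 1 for Stat3 but 0.619 times its TPM, the effective length being 1.23 times greater and the TPM scale lower as given above. For Jak2 the length was 4967, 4146 and 3495 nt, while CPM was 12.6, 13.1 and 12.3. The near-identical TPM of Jak2 in the 3 libraries thus came from a shorter length in the libraries where the TPM scale was lower. Weighted length differed 1.2 times or more between libraries in 2 of the 10 genes, against 28.1% of protein-coding genes tested.

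Socs3 and Tyk2 had nearly constant lengths, with highest to lowest ratios of 1.03 and 1.02. Their TPM differences between libraries, of 0.93 and 0.761 times in replicate 2 against replicate 1, came from counts and the scale alone. The transcripts of a gene are not separated in the tables, so the alpha and beta forms of Stat3, or the membrane and soluble forms of Lifr, were not resolved.

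**Figure D5:**
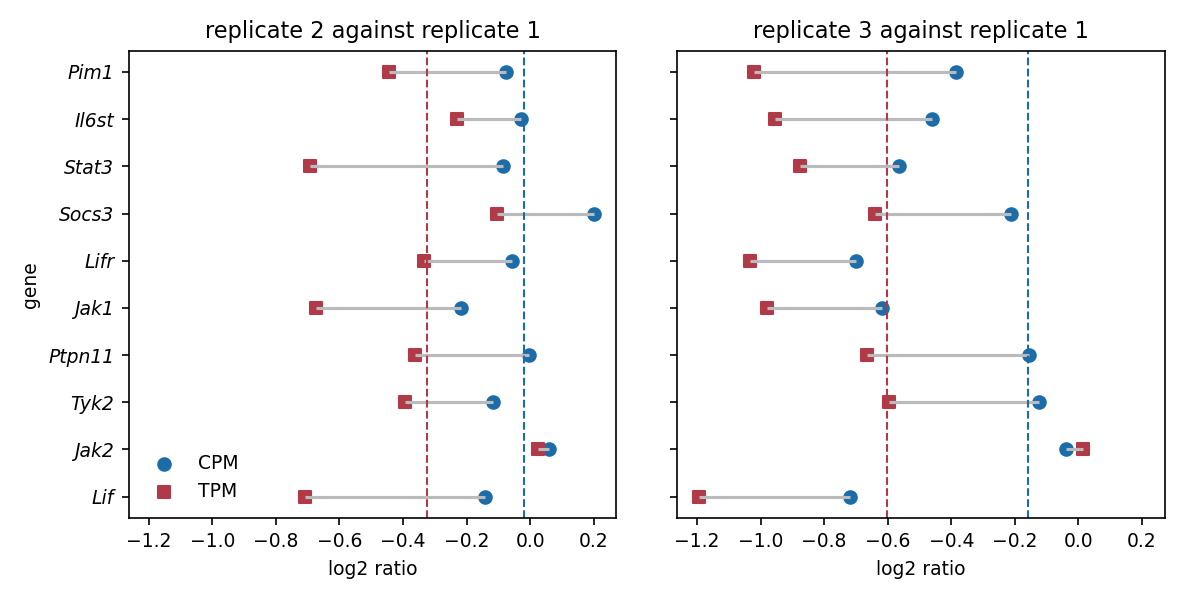
Log2 ratio of replicate 2 (left) and replicate 3 (right) to replicate 1 for the 10 genes, in CPM (blue circles) and TPM (red squares). Dashed lines are the medians over genes with a mean of at least 1 TPM in the same colours, -0.02 and -0.32 at left and -0.16 and -0.60 at right. Jak2 alone has a TPM ratio near 0 in both panels.

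The sources used here do not say whether reads were counted by strand, so reads of genes overlapping on opposite strands could have been mixed. The antisense gene Gm26885 overlaps the start of Pim1 over 1173 nt and had 22, 4 and 7 counts, few beside the Pim1 counts. The gene 1700084C06Rik, antisense to Tyk2, had 0 counts in every library. On the same strand, Gm42930 inside Ptpn11 had 32, 21 and 11 counts. Raver2 overlaps the end of Jak1 by 4 nt and had 161, 61 and 65 counts. Lif, Lifr, Il6st, Socs3 and Jak2 had no overlapping gene in the annotation.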

How the data were processed

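Total RNA of 3 replicates, depleted of ribosomal RNA, was made into directional libraries, per the labels' protocols. The authors deposited, per the file headers, an estimated count (expected count), TPM, length and effective length per gene for each library, in columns named as RSEM names them. STAR, RSEM and the mm10 build are among the names in the submitters' processing notes; versions, annotation release and strand setting are not given in the sources used here. Of the 55487 gene IDs, 55141 matched GENCODE vM21, which gave symbols, types and GRCm38 coordinates, a build equivalent to mm10.

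CPM was computed from estimated counts and their library total. Counts were rounded for edgeR 4.0.16 (R 4.3.3): TMM, filterByExpr, intercept-only design, trended dispersion, goodness-of-fit test and Benjamini-Hochberg adjustment over all genes. DESeq2 1.42.0 supplied alternative size factors. The test was also run on simulated data with 200 changed genes, the same dispersion for all genes and no length trend. That run does not bear on shifts as small as those of the 10 genes. Poisson intervals and the floor of 3 counts cover counting error only. Python 3.11.15 served for the rest, with pandas 2.3.3 and numpy 2.4.6 for tables and scipy 1.17.1 for intervals. The genes allowed by the naming rule were the 10 members, the listed pathway genes and markers, genes overlapping a member or starting within 1000 bp of its start on the other strand, and the 3 protein-coding genes nearest in level to Stat3 and to Lifr. Members and lists were chosen with earlier results of these data known. Samples were grouped and numbered by their titles. Alternatives left out each replicate or changed scaling, filter, dispersion, limit, pseudocount or length correction. The values of 1 listed gene are not reported here.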

Additional observations from a re-analysis of the deposited data

How the results depend on the processing

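Recomputing the 8 results gave 49 values under alternatives, 7 of which (effective length held at its mean over replicates) chosen after seeing the data. Of these, 41 stayed within 1 SD of the replicates, or within 1.5 times for counts, and 7 moved. The other reversed: the log2 ratio of Il6st to Lifr became -0.39 on CPM, since length is then not taken into account. It was 0.93 with a pseudocount of 1 TPM. On CPM the shares of Stat3, Socs3 and Pim1 in their families became 37.7, 21.8 and 57.1%, and the median level of the 10 genes 5.99 on the log2 scale. That median was 4.04 without genes of effective length under 100 nt and 4.09 with TMM-scaled counts per kilobase, each with 10 genes past 1. Without those short genes, an alternative added for the related lists after seeing the data, the genes past 1 went from 0 to 3 for the gp130 family cytokines and from 0 to 3 for their other receptors. A limit of 5 TPM was passed by 6 genes. No gene of the 10 was called for replicate spread in any of the 7 other fits, whose lowest unadjusted p among the 10 was 0.181 (edgeR). Depth limits Lif, with 12 counts in replicate 3. No paired analysis was possible because the RNA-seq group was the only group analysed.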
